A study of Mus musculus with 6 samples.

Results

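The genes described here encode the proteins of the cytosolic ribosome. They were chosen by mouse symbol: Rpl or Rps followed by a number, with an optional letter or an l or l1 ending, together with Rplp0, Rplp1, Rplp2 and Rpsa, and without the Rps6k kinases, Rps27l and symbols with -ps. This rule picked 83 of the 18124 genes in the deposited table, 51 of the large and 32 of the small subunit. The annotation used for symbols holds 85 that fit it, and Rpl10l and Rpl3l are not listed in the table, so no value is given for either. All 83 passed the filter on low counts, as did 14644 genes in all.

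The samples were 6 bulk RNA-seq libraries of mesenchymal stem cells (MSCs) from mouse skeletal muscle. The senescent medium group (3 libraries) was grown for 72 h in conditioned medium from macrophages, themselves grown from bone marrow, that had been made senescent with hydrogen peroxide, at 300 µM for 3 h, applied again 3 days later and followed by 14 days of culture. The control medium group (3 libraries) was grown for the same time in medium from non-senescent macrophages, and the labels do not say how long those macrophages had been cultured. All MSCs were Col1-eGFP+ Sca-1+ cells, sorted from the quadriceps of 6 naïve male mice that carry a green fluorescent protein driven by the collagen 1 promoter, and used at passage 4; the macrophages came from wild type mice. The labels do not tie a library to a mouse or to a separate culture, and p-values therefore reflect how far these libraries vary, which may be technical only.

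Ribosomal proteins assemble with ribosomal RNA in the nucleolus into a small subunit, which decodes the mRNA, and a large subunit, which joins the amino acids. Their mRNAs are abundant and short and usually start with a run of pyrimidines, the 5' terminal oligopyrimidine (TOP) motif, through which mTORC1 and the RNA-binding protein Larp1 control their translation as a group. These genes have also left many processed pseudogenes and near-identical copies in mammalian genomes, which matters for how short reads are assigned to them.

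A slightly higher level in senescent medium was the commonest result in both subunits. Of the 83 genes, 48 were higher in senescent medium (57.8%), 3 were lower (3.61%: Rpl5, Rpl7l1 and Rpl22l1) and 32 did not pass the threshold, an adjusted p under 0.05 in edgeR's quasi-likelihood test with Benjamini-Hochberg adjustment over all genes. Over all 14644 genes tested, 24.6% were higher and 24.9% were lower, so a call in itself is common in these libraries. The median log2 fold change, senescent over control medium, was 0.19 over the ribosomal protein genes and -0.00096 over all genes tested. With GC content and length offsets it was 0.111 over the ribosomal protein genes and 0.00399 over all genes tested, with 44 genes higher and 5 lower. The single genes ran between -0.71 and 0.47, 73 were above 0 (49.9% of all genes tested were) and 10 below, and only Rpl5 reached an absolute value of 0.5, which 3037 of all genes tested did. All 3 senescent libraries stood above all 3 control libraries for 39 of the 83 genes and below them for 4, beside 27.8% and 28% of all genes tested.

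The large subunit had 26 genes higher and 3 lower of 51, with a median log2 fold change of 0.16. In the small subunit 22 of 32 were higher and none was lower, with a median of 0.20. The small-subunit genes below 0 were Rps6 and Rps28, both within 1 SE of 0. Among the 39 genes with a mean of at least 100 CPM (CPM, counts scaled to library size with the TMM factors of edgeR), 31 were higher and none was lower, while 877 of all 1923 tested genes at that level were higher (45.6%) and 559 were lower (29.1%). Of the 44 genes under 100 CPM, 17 were higher and 3 were lower.

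**Figure D1:**
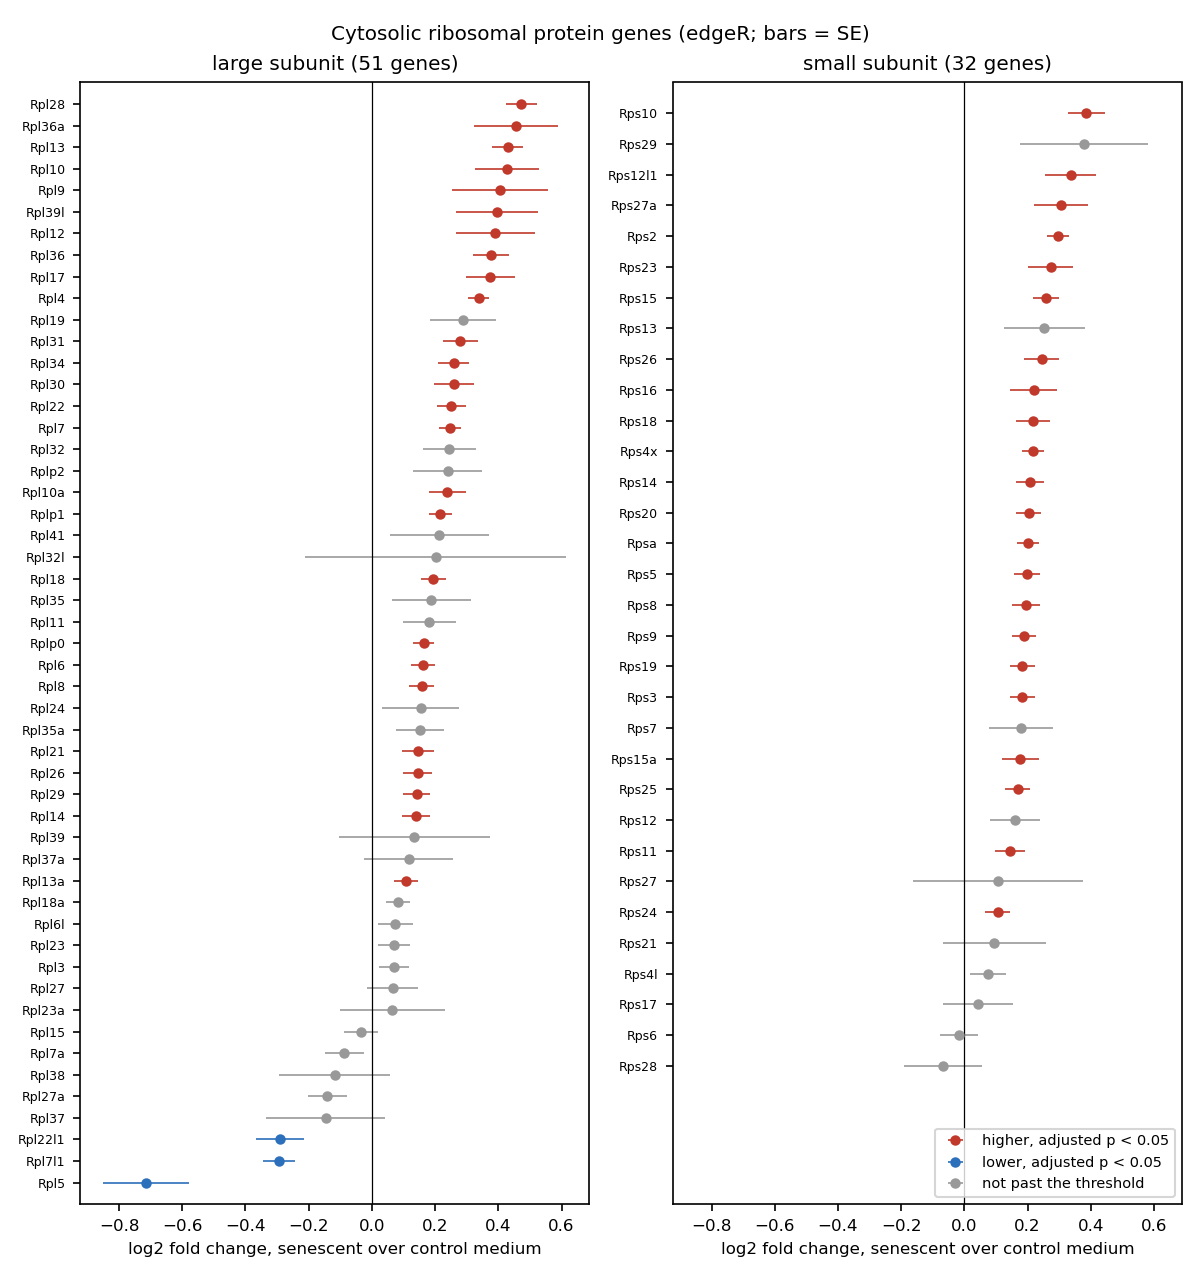
Log2 fold change (x axis, senescent over control medium) of each of the 51 large-subunit and 32 small-subunit genes, ordered by value; points are edgeR estimates, bars are SE, and the colour gives the call. Most points lie between 0 and 0.5 in both panels, and the 3 genes called lower, Rpl22l1, Rpl7l1 and Rpl5, are all in the large-subunit panel.

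Added over all 83 genes, the level was 14838, 14486 and 15010 CPM in the senescent libraries, against 13813, 12628 and 12211 CPM in the control libraries. The groups did not overlap on this TMM scale. As a share of each library's counts with no scaling, the genes took 1.427%, 1.40% and 1.48% in senescent medium, against 1.423%, 1.29% and 1.26% in control medium, and here the first control library lay above the second senescent one. The ratio of the large to the small subunit in summed CPM was 1.231, 1.255 and 1.242 in senescent medium, against 1.267, 1.253 and 1.264 in control medium. These ranges overlap, so a shift of one subunit against the other was not separable from the spread between libraries.

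Control library 1 stood nearest to the senescent libraries. Relative to the control mean, the median log2 value of the ribosomal protein genes was 0.193, 0.152 and 0.234 in senescent libraries 1 to 3, against 0.112, -0.03 and -0.0896 in control libraries 1 to 3. Without control library 1, 64 of the 83 genes were higher and 3 were lower, with a median log2 fold change of 0.24. That fit called 7099 of all 14904 genes tested in either direction, against 7251 of 14644 with all 6 libraries. Among the genes named below, Rplp2, Rpl11, Rpl39, Rpl3, Rpl6l, Fau and Rps27l had not passed the threshold and did so without control library 1. Their edgeR adjusted p then lay between 8.81e-08 and 0.0366. Fau and Rps27l stand outside the 83. With no scaling beyond the library totals, the counts were 30 higher and 5 lower, at a median of 0.11, while over all genes tested 17.7% were then higher and 32.9% lower.

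**Figure D2:**
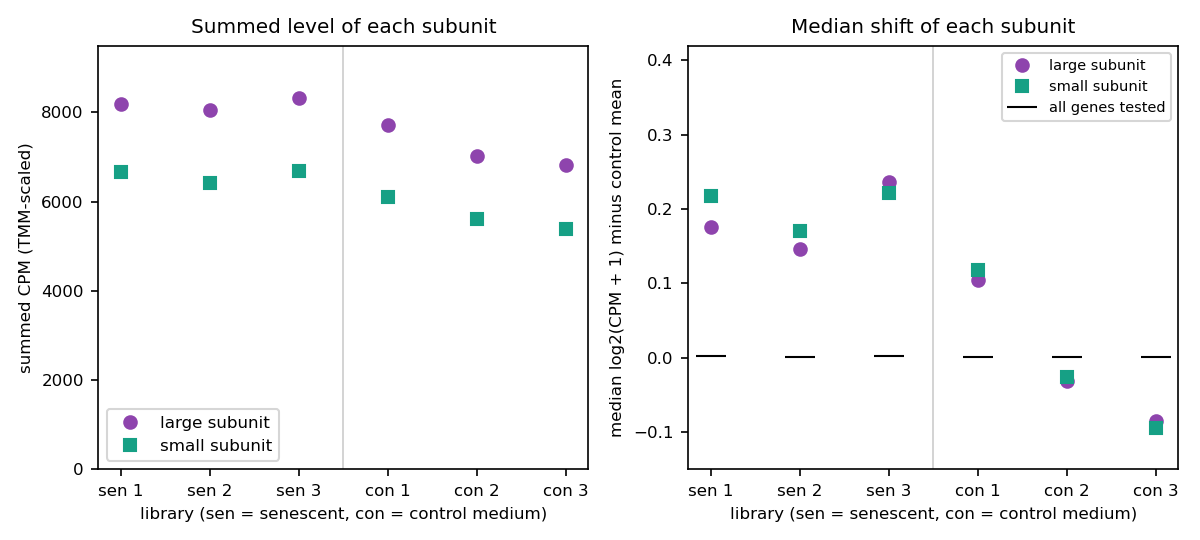
Left, summed CPM of the large-subunit (circles) and small-subunit (squares) genes in each library; right, the median over each subunit's genes of log2(CPM + 1) minus its mean in the control libraries, with dashes for all genes tested. Both subunits move together from library to library, the 3 senescent libraries are above the 3 controls, and control library 1 is the highest control.

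Library totals were 19420700 to 21659400 estimated counts in senescent medium and 17228200 to 21225800 in control medium. The summed stromal markers (6 of 6 tested, among them Col1a1 and Ly6a, the Sca-1 gene) lay between 13400 and 13950 CPM in senescent medium and between 10090 and 10160 CPM in control medium. Col1a1 and Col1a2 carried most of that sum, with log2 fold changes of 0.49 and 0.54 (edgeR adjusted p = 1.27e-13 and 6.43e-15). Thy1 and Cd34 were also higher, with 0.29 and 0.22 (edgeR adjusted p = 4.01e-08 and 0.00757). Pdgfra was lower in senescent medium, with a log2 fold change of -0.29 (edgeR adjusted p = 5.65e-08), and Ly6a did not pass the threshold, with 0.03 (edgeR adjusted p = 0.449). Summed macrophage markers lay between 14.7 and 19.63 CPM in senescent medium and between 11.36 and 14.14 CPM in control medium, with 3 of 6 tested and Ptprc, Adgre1 and Itgam not listed. Of the 3, Lyz2 had a log2 fold change of 0.80 (edgeR adjusted p = 1.78e-06), Csf1r was lower with -0.53 (edgeR adjusted p = 0.0248), and Cd68 did not pass the threshold (edgeR adjusted p = 0.185). The only muscle marker tested of 5 was at 13.13 to 14.33 CPM against 7.518 to 9.561 CPM, and the only endothelial one of 3 at 1.394 to 2.208 CPM against 0.5535 to 0.8999 CPM, senescent medium first in both. Their part in the results was not tested, and in bulk libraries a change in the mix of cells and a change of RNA per cell cannot be told apart.

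How the reads of these genes were shared with copies bears on every value that follows. Whole numbers in all 6 libraries, within 0.01, were found for 5 of the 83 genes (6.02%: Rpl7l1, Rps4l, Rps21, Rpl39 and Rpl39l) but for 59.9% of all genes tested, and 81.9% of the ribosomal protein genes were fractional in all 6 libraries against 21.2% of all genes tested. In the GENCODE M21 transcripts, a median of 40.6% of the 100-base windows of a gene's main transcript occurred letter for letter in a transcript of another gene. Only 7 genes shared no window, 14 shared under 10%, 34 shared at least 50%, and 74 shared with at least 1 pseudogene. Rpl21 shared with 39 pseudogenes. The 14 genes with under 10% shared had 8 higher and 1 lower with a median log2 fold change of 0.19, and the 34 with at least 50% shared had 18 higher and none lower with a median of 0.19, so both medians equalled that of all 83 genes to 2 decimals.

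The deposited level per length varied widely between these genes, although most ribosomal proteins enter the ribosome in equal number. The mean over both media ran between 1.744 CPM per kb for Rpl32l and 939.4 CPM per kb for Rplp0, a 538.6-fold range. The median was 119.5 CPM per kb. Rpl32l is typed as a pseudogene and shares no window, and the next lowest gene was Rpl5, at 4.035 CPM per kb. Genes with under 10% of windows shared had a median of 175.2 CPM per kb, and those with at least 50% shared a median of 86.8 CPM per kb. Across the 83 genes, Spearman's rho between the share of windows and the level per kb was -0.315, and between the level per kb and the log2 fold change it was 0.188, as a description of genes that share libraries, length biases and reads. The transcript chosen for the length also matters. Rps20, with 5.91% of its windows shared, had 57.2 CPM per kb over a transcript of 3706 bases. A low level here therefore belongs to the row and the length used, and cannot be read as a low level of the protein's mRNA.

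**Figure D3:**
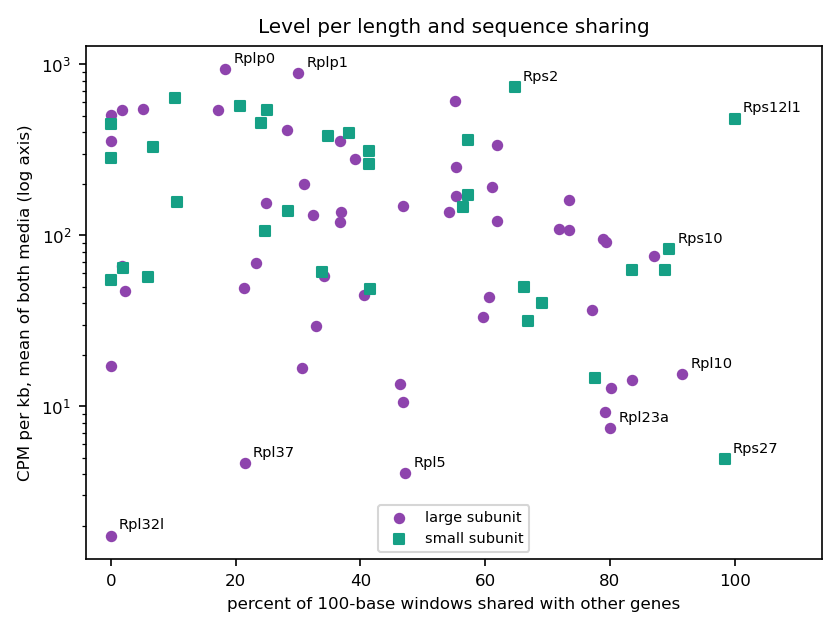
Mean CPM per kb of each gene over both media (y axis, log scale) against the percent of its 100-base windows found in other genes' transcripts (x axis); circles are large-subunit and squares small-subunit genes. Rplp0, Rplp1 and Rps2 are highest, and Rpl32l, Rpl5 and Rpl37 are lowest, with Rpl5 sharing 47.2% of its windows.

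On the genes' own rows, the highest levels per length belonged to stalk proteins and to Rps2. Of the counts summed with the listed genes that share a window, the own row held 89.3% for Rplp0, 71.1% for Rplp1 and 59.4% for Rps2. The order of the highest genes therefore also depends on how shared reads were divided. Rplp0, the base of the stalk that recruits the translation factors, had 992 ± 7.34 CPM per kb in senescent medium and 886 ± 41.2 CPM per kb in control medium (SD, n = 3 each). Its level was 1359, 1342 and 1343 CPM in senescent medium, against 1267, 1183 and 1160.0 CPM in control medium. Rplp0 rose, with a log2 fold change of 0.16 ± 0.034 (edgeR adjusted p = 1.78e-04), where ± gives the SE here and for every log2 fold change below. Rplp1, which binds Rplp0 as a dimer with Rplp2, had 952 ± 33.7 CPM per kb in senescent medium and 819 ± 29.8 CPM per kb in control medium. It was at 475, 458 and 492 CPM in senescent medium, against 426, 403 and 398 CPM in control medium. Rplp1 rose, with a log2 fold change of 0.22 ± 0.036 (edgeR adjusted p = 7.01e-06). For both, every senescent library lay above every control library. With GC content and length offsets Rplp0 had a log2 fold change of 0.079 (edgeR adjusted p = 0.0147), and the Rplp1 call was lost, at 0.103 (edgeR adjusted p = 0.262). With library totals only the values were 0.0821 for Rplp0 and 0.136 for Rplp1, both past the threshold. Rplp2 was at 120.3, 128 and 135 CPM in senescent medium, against 125, 102 and 97.3 CPM in control medium; control library 1 lay within the senescent range, and the difference, a log2 fold change of 0.24 ± 0.11 (edgeR adjusted p = 0.131), did not pass the threshold. Without control library 1 its log2 fold change was 0.35, with an edgeR adjusted p of 8.81e-08.

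Neighbours in this order were close. Rplp0 and Rplp1 overlapped within 1 SD in both media. Rps2, a protein of the mRNA entry channel, came next and lay more than the summed SDs below Rplp1, with 809 ± 12.1 CPM per kb in senescent medium and 659 ± 28.8 CPM per kb in control medium. It was at 797, 803 and 821 CPM in senescent medium, against 690.5, 639 and 642 CPM in control medium, without overlap, and rose with a log2 fold change of 0.30 ± 0.034 (edgeR adjusted p = 1.58e-08). Rpsa, a small-subunit protein also known as the laminin receptor precursor, was at 694, 666 and 671 CPM in senescent medium, against 612, 582 and 572 CPM in control medium. Its groups did not overlap and it rose with a log2 fold change of 0.20 ± 0.034 (edgeR adjusted p = 1.06e-05), or 0.12 with library totals only (edgeR adjusted p = 0.00385).

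The 5 largest rises of the large subunit among genes whose groups did not overlap were those of Rpl28, Rpl36a, Rpl13, Rpl10 and Rpl9. Rpl28, a large-subunit protein that budding yeast lacks, was at 140.2, 133 and 124 CPM in senescent medium, against 102, 92.4 and 91.5 CPM in control medium. The lowest senescent library was above the highest control library, with a log2 fold change of 0.47 ± 0.048 (edgeR adjusted p = 5.21e-09). A gene and the listed genes that share at least 1 of its windows are called its family here. The Rpl28 row held 40.4% of the counts of its family and Rpl28-ps1 held 58.9%. Summed over that family, the log2 fold change was 0.34 ± 0.078 (edgeR adjusted p = 0.0114). Rpl13, known from human variants in a skeletal dysplasia, was at 90.6, 84.2 and 81.6 CPM in senescent medium, against 63.0, 61.6 and 65.9 CPM in control medium. The groups again did not overlap, with a log2 fold change of 0.43 ± 0.049 (edgeR adjusted p = 1.15e-08). Its row held 11.8% of the counts of its family and Gm12918 held 86.7%. The family sum had a log2 fold change of 0.35 ± 0.037 (edgeR adjusted p = 3.34e-09).

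Rpl36a, which lies at the tRNA exit site, was low at 7.73, 7.14 and 8.80 CPM in senescent medium, against 5.80, 5.54 and 5.96 CPM in control medium. Rpl36a rose, with a log2 fold change of 0.46 ± 0.13 (edgeR adjusted p = 0.00496). Rpl10, which joins the large subunit last in the cytoplasm and lies by the peptidyl transferase centre, was at 13.4, 13.7 and 14.9 CPM in senescent medium, against 11.0, 9.32 and 11.1 CPM in control medium. Rpl10 rose, with a log2 fold change of 0.43 ± 0.10 (edgeR adjusted p = 7.60e-04). Rpl9 was at 7.10, 6.61 and 7.69 CPM in senescent medium, against 6.03, 4.11 and 6.19 CPM in control medium. Rpl9 rose, with a log2 fold change of 0.41 ± 0.15 (edgeR adjusted p = 0.0258). None of these 3 overlapped between media, but Rpl9 was the least stable of them: without control library 2 its log2 fold change was 0.23 with an edgeR adjusted p of 0.236, and without senescent library 1 or 3 the adjusted p was 0.0502 and 0.103. The Rpl9 call was also lost with DESeq2 (adjusted p = 0.0761) and with library totals only (edgeR adjusted p = 0.0797). Rows of copies also hold most of what maps to these families, since the gene's own row held 9.17% of the summed counts for Rpl36a, 1.69% for Rpl10 and 1.59% for Rpl9. As a family sum Rpl36a had a log2 fold change of 0.22 ± 0.071 (edgeR adjusted p = 0.0178), and its groups then overlapped. The row Rpl10-ps3 alone held 97.3% for Rpl10, whose transcript it matches over 740 identical bases, and it was at 813, 790.5 and 813 CPM in senescent medium, against 636, 597 and 570.0 CPM in control medium. Rpl10-ps3 rose, with a log2 fold change of 0.42 ± 0.036 (edgeR adjusted p = 3.10e-11).

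In the small subunit the 5 largest rises without overlap were those of Rps10, Rps12l1, Rps27a, Rps2 and Rps23. Rps10, which the ligase Zfp598 marks with ubiquitin on collided ribosomes in human cells, was at 44.6, 47.2 and 48.0 CPM in senescent medium, against 36.1, 36.5 and 34.4 CPM in control medium. All 3 senescent libraries were higher, with a log2 fold change of 0.39 ± 0.058 (edgeR adjusted p = 1.65e-06). Its row held 14.2% of the counts of its family and Rps10-ps2 held 79.1%. The log2 fold change of the family sum was 0.22 ± 0.040 (edgeR adjusted p = 2.58e-05), beside 0.31 ± 0.052 (edgeR adjusted p = 1.65e-04) for the family sum of Rps23 and 0.32 ± 0.050 (edgeR adjusted p = 4.72e-05) for that of Rps27a. Rps27a, made as a fusion with ubiquitin, was at 27.0, 26.3 and 31.2 CPM in senescent medium, against 26.1, 20.2 and 22.3 CPM in control medium; senescent library 2 exceeded control library 1 by little, and a log2 fold change of 0.31 ± 0.086 (edgeR adjusted p = 0.00481) became 0.22 with an adjusted p of 0.0546 without control library 2 and 0.225 with an adjusted p of 0.0501 with library totals only. Rps23, a protein of the decoding centre, was at 48.0, 46.2 and 54.8 CPM in senescent medium, against 45.8, 39.7 and 38.1 CPM in control medium. Rps23 rose, with a log2 fold change of 0.27 ± 0.071 (edgeR adjusted p = 0.00327) and again a narrow gap between senescent library 2 and control library 1.

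Rps12l1 is typed as a pseudogene in the annotation, all of its windows are shared, and the whole of its exon lies opposite Gm44510. It was at 212, 195 and 235 CPM in senescent medium, against 183, 168 and 158 CPM in control medium. Rps12l1 rose, with a log2 fold change of 0.34 ± 0.082 (edgeR adjusted p = 0.0139). The Rps12l1 call was lost without control library 2 (edgeR adjusted p = 0.0733), with library totals only (0.256, edgeR adjusted p = 0.0669) and with GC content and length offsets (0.217, edgeR adjusted p = 0.166). Its partner Rps12 was at 34.2, 28.9 and 35.0 CPM in senescent medium, against 31.7, 30.3 and 25.8 CPM in control medium, with overlap and a log2 fold change of 0.16 ± 0.079 (edgeR adjusted p = 0.099). Because the sequences match, the split between Rps12 and Rps12l1 follows the counting, and only their sum can be read. Together with their other copies the pair had a log2 fold change of 0.28 ± 0.089 (edgeR adjusted p = 0.0453).

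Rps6, the target of the S6 kinases, was at 51.1, 55.9 and 55.9 CPM in senescent medium, against 59.6, 55.7 and 49.6 CPM in control medium, with full overlap and a log2 fold change of -0.02 ± 0.060 (edgeR adjusted p = 0.831). Its row held 11.0% of the counts of its family and Rps6-ps4 held 88.3%; summed, the family had a log2 fold change of 0.10 ± 0.036 (edgeR adjusted p = 0.0207). Rpl11, which with Rpl5 and 5S ribosomal RNA forms the particle that binds Mdm2, was at 29.9, 28.4 and 29.2 CPM in senescent medium, against 30.5, 23.8 and 23.1 CPM in control medium, with control library 1 above all senescent libraries and a log2 fold change of 0.18 ± 0.083 (edgeR adjusted p = 0.0752). Without control library 1 the log2 fold change of Rpl11 was 0.31, with an edgeR adjusted p of 0.000671. The Rpl11 row held 7.81% of the counts of its family and Gm10288 held 88.3%. Summed, the Rpl11 family had a log2 fold change of 0.30 ± 0.045 (edgeR adjusted p = 1.36e-05), and its groups did not overlap.

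Rpl5, the other protein of that particle, had the largest difference of all 83 genes. It was at 7.25, 5.01 and 6.49 CPM in senescent medium, against 10.3, 11.6 and 8.83 CPM in control medium. Every senescent library lay below every control library, with a log2 fold change of -0.71 ± 0.14 (edgeR adjusted p = 6.06e-05). The row held only 1.46% of the counts of its family, and Gm15500 held 98.0%. The 894-base transcript of Gm15500 is identical to bases 143 to 1036 of the 2045-base Rpl5 transcript, which are its complete coding part, so reads from the coding part cannot be placed between them. The first 90 coding bases of Rpl5 (GENCODE M21, chromosome 5, plus strand; start codon in capitals), with 0 differences in Gm15500, show what is shared.
Rpl5: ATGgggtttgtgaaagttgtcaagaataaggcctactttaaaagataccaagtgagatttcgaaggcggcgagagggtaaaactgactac

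Gm15500 was at 613, 594 and 609 CPM in senescent medium, against 522, 504 and 477 CPM in control medium. Gm15500 rose, with a log2 fold change of 0.27 ± 0.035 (edgeR adjusted p = 1.10e-07). Summed over the family, the log2 fold change of Rpl5 was 0.26 ± 0.036 (edgeR adjusted p = 3.27e-07), the opposite sign to that of its own row. Of the 3920 exon bases of Rpl5, 953 (24.3%) also lie opposite exons of Fam69a, which was at 13.2, 15.2 and 13.9 CPM in senescent medium, against 18.9, 20.6 and 21.4 CPM in control medium. Fam69a fell, with a log2 fold change of -0.52 ± 0.087 (edgeR adjusted p = 7.62e-06). The sources used here do not say whether counting used strand. If it did not, reads in those 953 bases cannot be told apart between Rpl5 and Fam69a. The lower value of the Rpl5 row is therefore not a measure of the Rpl5 coding sequence, whose family sum was higher.

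The copies that carry an l or l1 ending did not follow their partners in 2 cases. Rpl22l1 and Rpl22 can replace each other in the large subunit, and in mice the Rpl22 protein is known to repress Rpl22l1. Their coding parts were 66.9% identical. The stretch shown, 60 coding bases from each in GENCODE M21 transcripts (chromosome 4 for Rpl22 and 3 for Rpl22l1, both on the plus strand), starts at coding base 231 of Rpl22 and 213 of Rpl22l1, and capitals mark the 8 bases that differ. It is shown because the 100-base windows of Rpl22 contain none found in another gene, so reads of the pair can be told apart.
Rpl22: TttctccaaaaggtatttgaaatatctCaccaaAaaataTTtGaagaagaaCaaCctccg
Rpl22l1: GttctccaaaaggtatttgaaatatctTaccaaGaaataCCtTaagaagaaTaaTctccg

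Rpl22l1 was at 21.8, 24.3 and 20.6 CPM in senescent medium, against 28.7, 27.4 and 25.4 CPM in control medium. All senescent libraries were below all control libraries, with a log2 fold change of -0.29 ± 0.076 (edgeR adjusted p = 0.00204). Rpl22 was at 175, 188 and 188 CPM in senescent medium, against 167, 154 and 143 CPM in control medium, with the groups apart in the other direction and a log2 fold change of 0.25 ± 0.047 (edgeR adjusted p = 1.27e-04). The ratio of Rpl22l1 to Rpl22 was 0.125, 0.129 and 0.110 in senescent medium, against 0.172, 0.178 and 0.178 in control medium. Rpl22l1 shares 40.6% of its windows with the row Gm15421, which held 32.7% of their sum and averaged 9.83 ± 0.780 CPM in senescent medium and 14.3 ± 1.48 CPM in control medium (SD, n = 3 each). Gm15421 fell, with a log2 fold change of -0.54 ± 0.10 (edgeR adjusted p = 6.31e-05). The summed log2 fold change was -0.37 ± 0.067 (edgeR adjusted p = 2.18e-05).

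Rpl7l1, a copy of Rpl7 that resembles Rlp7, a nucleolar assembly factor of the large subunit in yeast, was at 56.5, 53.7 and 55.2 CPM in senescent medium, against 72.2, 66.5 and 64.1 CPM in control medium. It was lower in every senescent library, with a log2 fold change of -0.29 ± 0.052 (edgeR adjusted p = 2.02e-05). Rpl7 itself was at 530.1, 517 and 522 CPM in senescent medium, against 461, 444 and 417 CPM in control medium, without overlap and with a log2 fold change of 0.25 ± 0.036 (edgeR adjusted p = 8.87e-07). The ratio of Rpl7l1 to Rpl7 was 0.106, 0.104 and 0.106 in senescent medium, against 0.157, 0.150 and 0.154 in control medium. Their coding parts were 53.03% identical, only 2.23% of Rpl7l1 windows are shared, and its values were whole numbers in all 6 libraries. Summed with Gm11222, the listed gene that shares windows with it, Rpl7l1 had a log2 fold change of -0.29 ± 0.052 (edgeR adjusted p = 1.92e-05).

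**Figure D4:**
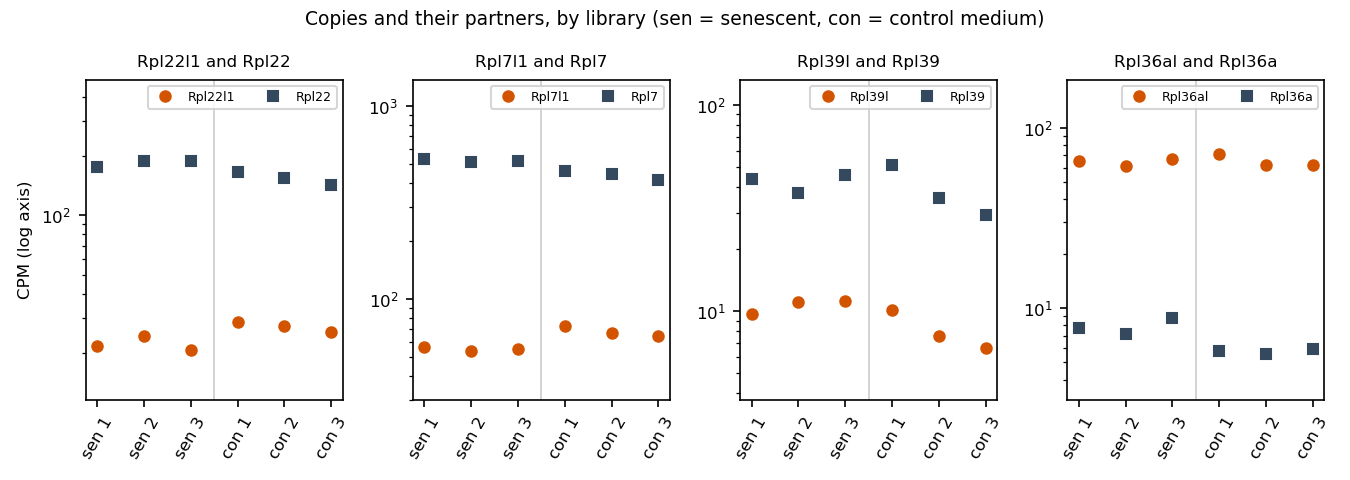
CPM (log axis) by library of 4 copies (circles) and their partners (squares), senescent libraries on the left of each panel and control libraries on the right. Rpl22l1 and Rpl7l1 are lower in senescent medium while Rpl22 and Rpl7 are higher; Rpl39l and Rpl39 overlap between media, and Rpl36a is higher while Rpl36al overlaps.

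Rpl39l, known in mice as a form of the exit tunnel protein Rpl39 that is abundant in testis, was at 9.70, 11.1 and 11.2 CPM in senescent medium, against 10.1, 7.61 and 6.64 CPM in control medium. Control library 1 lay within the senescent range, and a log2 fold change of 0.40 ± 0.13 (edgeR adjusted p = 0.0121) was lost on leaving out senescent library 2 or 3 or control library 2 or 3 (adjusted p between 0.0515 and 0.096). Rpl39 was at 43.7, 37.5 and 45.5 CPM in senescent medium, against 51.2, 35.4 and 29.4 CPM in control medium, with overlap and a log2 fold change of 0.13 ± 0.24 (edgeR adjusted p = 0.691). Without control library 1 the log2 fold change of Rpl39 was 0.38, with an edgeR adjusted p of 0.00231. Rpl39l shares no window and Rpl39 few, although their coding parts were 85.3% identical. The first 60 coding bases of each, in GENCODE M21 transcripts (Rpl39 on chromosome X, minus strand; Rpl39l on chromosome 16, plus strand), differ at the 4 bases in capitals.
Rpl39: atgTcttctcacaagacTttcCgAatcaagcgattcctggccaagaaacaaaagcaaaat
Rpl39l: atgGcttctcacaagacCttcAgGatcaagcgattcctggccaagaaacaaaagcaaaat

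Rpl36al, which stands outside the naming rule, averaged 64.5 ± 3.02 CPM in senescent medium and 65.1 ± 5.10 CPM in control medium (SD, n = 3 each) and overlapped, with a log2 fold change of -0.01 ± 0.055 (edgeR adjusted p = 0.878). The ratio of Rpl36al to the Rpl36a row was 8.48, 8.55 and 7.59 in senescent medium, against 12.2, 11.2 and 10.4 in control medium, without overlap. That row held 9.17% of its family's counts and Rpl36a-ps2 held 78.0%, so the ratio depends on how reads were assigned. The Rpl36a family sum was 82.46, 75.85 and 83.06 CPM in senescent medium, against 78.12, 66.38 and 62.6 CPM in control medium, with overlap. Of the other copies, Rps4l averaged 52.1 ± 3.76 CPM in senescent medium and 49.5 ± 1.72 CPM in control medium. Rps4l did not pass the threshold, with a log2 fold change of 0.07 ± 0.057 (edgeR adjusted p = 0.286). Its partner Rps4x was at 401, 384 and 407 CPM in senescent medium, against 348, 342 and 335 CPM in control medium, apart between media and with a log2 fold change of 0.22 ± 0.034 (edgeR adjusted p = 3.51e-06). With library totals only Rps4x had 0.137, and with GC content and length offsets 0.14, both past the threshold. Rpl6l averaged 109 ± 0.524 CPM in senescent medium and 103 ± 11.0 CPM in control medium. Rpl6l did not pass the threshold, with a log2 fold change of 0.07 ± 0.056 (edgeR adjusted p = 0.292). Rpl32l was near the lower end of detection at 0.745 ± 0.264 CPM in senescent medium and 0.647 ± 0.0288 CPM in control medium. Rpl32l did not pass the threshold, with a log2 fold change of 0.20 ± 0.41 (edgeR adjusted p = 0.714). Rps4l, Rpl6l and Rpl32l are typed as pseudogenes in the annotation.

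Rpl3, Rps27 and Rpl37 are partners of copies or among the lowest per length, and none passed the threshold. Rpl3, which reaches into the peptidyl transferase centre, averaged 126 ± 3.95 CPM in senescent medium and 120.0 ± 10.4 CPM in control medium. Rpl3 did not pass the threshold, with a log2 fold change of 0.07 ± 0.049 (edgeR adjusted p = 0.249). Rps27 was at 1.68, 1.97 and 1.64 CPM in senescent medium, against 1.63, 1.98 and 1.24 CPM in control medium. Rps27 did not pass the threshold, with a log2 fold change of 0.11 ± 0.27 (edgeR adjusted p = 0.772); its row held 1.17% of its family and Rps27rt, with 341 identical bases, held 98.8%. Rpl37 was at 3.50, 4.16 and 3.37 CPM in senescent medium, against 5.35, 3.50 and 3.38 CPM in control medium. Rpl37 did not pass the threshold, with a log2 fold change of -0.15 ± 0.19 (edgeR adjusted p = 0.549); its row held 2.90% and Rpl37rt held 97.1%.

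To read the genes without the division of shared reads, each was summed with every listed gene that shares at least 1 window with it, an alternative chosen after seeing the data. Besides the 83 genes, 312 listed genes entered, of which 288 are pseudogenes in the annotation and 12 are protein-coding. The ribosomal protein genes and these copies together took 2.974%, 2.927% and 3.062% of the counts in senescent medium, against 2.938%, 2.672% and 2.601% in control medium, and the genes' own rows held 47.8% to 48.5% of that. After summing, 63 of 83 families were higher and 2 were lower (Rpl22l1 and Rpl7l1), with a median log2 fold change of 0.20, beside 24.9% higher and 25.3% lower of the 14434 features tested. The large subunit had 37 higher and 2 lower, and the small subunit 26 higher and none lower.

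Of the 48 genes called higher on their own rows, 47 were called higher as families, and the exception was Rpl30, with 0.22 ± 0.079 (edgeR adjusted p = 0.0513). A family was above 0 for 79 of the 83. A gene's own row held a median of 42.8% of its family's counts, and 44 genes held under 50%. Rplp2 shares its windows with Wdr89, a protein-coding gene whose row held 57.0% of the sum, and the sum had a log2 fold change of 0.28 ± 0.037 (edgeR adjusted p = 1.07e-07). Rpl6 with Rpl6l, and Rps12 with Rps12l1, are counted in the same sums, so these families are not independent of each other.

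**Figure D5:**
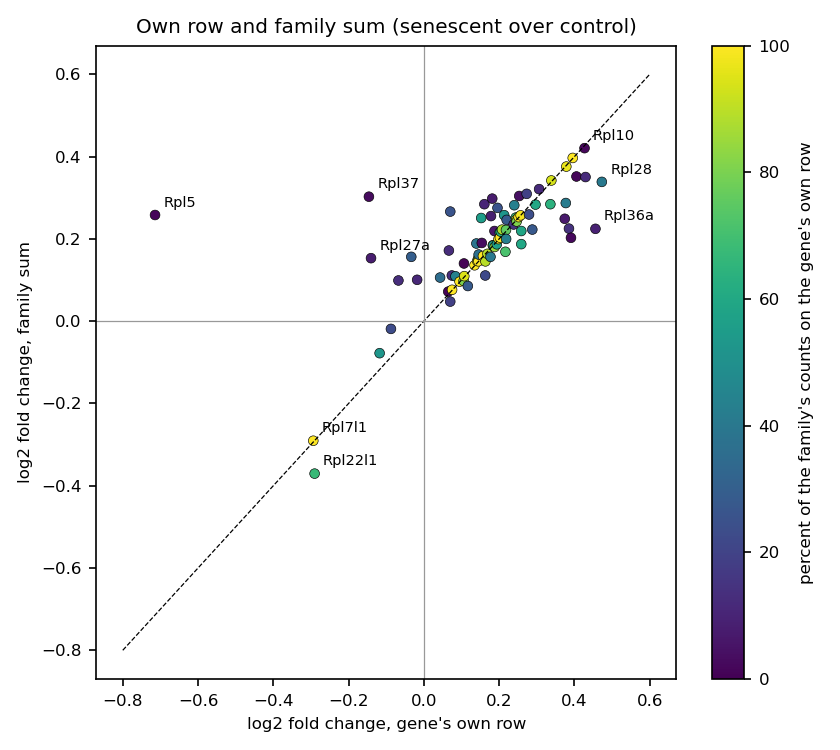
Log2 fold change of the family sum (y axis) against that of the gene's own row (x axis), 1 point for each of the 83 genes, coloured by the percent of the family's counts on the own row; the dashed line marks equal values. Rpl5, Rpl37 and Rpl27a are below 0 on their own rows and above 0 as families, as are Rpl15, Rps6 and Rps28. The own rows of these genes hold between 1.46% (Rpl5) and 29.6% (Rpl15) of their family's counts.

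The start sites were read for the TOP motif and for motifs common in these promoters, as a description of sequence. Of the 83 genes, 60 matched a RefSeq promoter window (GRCm38.p6, 250 bases before to 50 after the start). A C at the start followed by at least 4 C or T was found in 14 of the 60 (23.3%) and in 3.01% of 27025 genes. Such a run anywhere within 30 bases before to 20 after the start was found in 80.0%, beside 57.6% of all genes. On either strand, CCGGAAG, the core of ETS-type sites, was found in 24 of the 60 (beside 9.93% of all genes), GCCATNTT, the core of YY1 sites, in 13 (beside 6.96%), and GGGCGG, the GC box, in 36 (beside 38.2%). None of the 3 motifs contains another, and a gene with several windows counted if any held the motif. The 14 genes with the run at the annotated start had 5 higher and none lower with a median log2 fold change of 0.16. The other 46 had 28 higher and 3 lower with a median of 0.19. This split follows the annotated start base. Since 80.0% of the 60 had a run near it, the 46 cannot be read as genes without the TOP motif.

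Printed from 30 bases before to 20 after the start, with runs of C followed by at least 4 C or T in capitals, are the windows of Rps10 (chr17:27635225-27635274, minus strand) and Rpl28 (chr7:4792935-4792984, plus strand), the largest rise of each subunit on its own row, of Rps6 (chr4:86857348-86857397, minus strand), which did not pass the threshold, and of Rpl22l1 (chr3:28805478-28805527, plus strand) and Rpl7l1 (chr17:46782637-46782686, minus strand), which fell.
Rps10: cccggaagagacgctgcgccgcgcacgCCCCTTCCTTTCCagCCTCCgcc
Rpl28: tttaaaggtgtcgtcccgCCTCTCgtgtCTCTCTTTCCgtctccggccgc
Rps6: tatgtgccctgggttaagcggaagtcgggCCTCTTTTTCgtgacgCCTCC
Rpl22l1: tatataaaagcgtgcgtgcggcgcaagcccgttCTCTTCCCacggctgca
Rpl7l1: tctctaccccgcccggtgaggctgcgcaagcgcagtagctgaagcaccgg

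Rps10, Rpl28 and Rps6 carry the run at the annotated start. Rpl22l1 carries one next to it but not at it, and Rpl7l1 shows none in these 50 bases. The run at the start was present in both of these rises and in Rps6, which did not pass the threshold.

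Some ribosomal proteins have symbols that stand outside the rule, and of those described here Rps3a1 and Rack1 were higher. Rps3a1, a small-subunit protein, averaged 337 ± 8.90 CPM in senescent medium and 285 ± 17.2 CPM in control medium (SD, n = 3 each). Rps3a1 rose, with a log2 fold change of 0.24 ± 0.039 (edgeR adjusted p = 5.59e-06). Rack1, a signalling scaffold on the small subunit, averaged 718 ± 9.76 CPM in senescent medium and 639 ± 33.8 CPM in control medium. Rack1 rose, with a log2 fold change of 0.17 ± 0.036 (edgeR adjusted p = 1.88e-04). With library totals only the values were 0.161 for Rps3a1 and 0.0884 for Rack1, both past the threshold. Fau, made as a fusion with a ubiquitin-like protein, had a log2 fold change of 0.22 ± 0.099 (edgeR adjusted p = 0.0632), and an adjusted p of 0.026 without senescent library 1. Rps27l, the copy of Rps27 that the rule leaves out, had a log2 fold change of 0.08 ± 0.051 (edgeR adjusted p = 0.235).

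Of the 20 mRNAs of translation factors and other proteins that share the TOP motif, 14 were higher and 3 were lower. Their median log2 fold change was 0.15. All of them but Hnrnpa1 and Naca averaged at least 100 CPM in both media. Of all tested genes with a mean at that level, 45.6% were higher and 29.1% were lower, with a median of 0.066. The difference between this list and those genes was not tested. Pabpc1, the poly(A)-binding protein, averaged 1431 ± 47.6 CPM in senescent medium and 1069.9 ± 16.5 CPM in control medium. Pabpc1 rose, with a log2 fold change of 0.42 ± 0.033 (edgeR adjusted p = 3.91e-12). Hnrnpa1, an RNA-binding splicing factor, went the other way at 45.8 ± 2.27 CPM in senescent medium and 59.4 ± 2.87 CPM in control medium. Hnrnpa1 fell, with a log2 fold change of -0.37 ± 0.055 (edgeR adjusted p = 1.13e-06). Window sharing with other genes was not checked for this list, so these values are those of the genes' own rows only. Rpl or Rps rows with -ps had 33 of 87 higher (37.9%) and none lower, beside 24.6% and 24.9% of all genes tested. Their median was 0.20, and these rows share reads with the genes themselves. Genes for the mitochondrial ribosome, a separate set of proteins, had 16 of 78 higher (20.5%) and 13 lower (16.7%) with a median of -0.03. Both shares were below those over all genes tested, and the difference between the sets was not tested.

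Regulators of TOP mRNA translation did not share a direction, with 7 of 19 higher (36.8%), 6 lower (31.6%) and a median of -0.08. Over all genes tested the shares were 24.6% and 24.9%. Eif4ebp1, the repressor of cap-dependent translation that mTORC1 inactivates, averaged 76.1 ± 2.33 CPM in senescent medium and 38.6 ± 1.89 CPM in control medium. Eif4ebp1 rose, with a log2 fold change of 0.98 ± 0.053 (edgeR adjusted p = 4.90e-16). Sesn2, a leucine sensor that restrains mTORC1, averaged 120.2 ± 3.26 CPM in senescent medium and 79.9 ± 0.936 CPM in control medium. Sesn2 rose, with a log2 fold change of 0.59 ± 0.042 (edgeR adjusted p = 4.04e-13). Among chaperones and importers of ribosomal proteins 3 of 13 were higher (23.1%) and 1 was lower (7.69%), with a median of 0.07. The share of higher calls was thus close to that over all genes tested. The import receptor Ipo5 had a log2 fold change of 0.22 ± 0.035 (edgeR adjusted p = 3.50e-06), or 0.142 with library totals only, and Ipo9, another import receptor, averaged 104 ± 1.21 CPM in senescent medium and 162 ± 4.74 CPM in control medium. Ipo9 fell, with a log2 fold change of -0.63 ± 0.039 (edgeR adjusted p = 1.72e-14).

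In the list for ribosome stalling and quality control 5 of 13 were higher (38.5%) and 4 were lower (30.8%), with a median log2 fold change of 0.12. Beside this and the next 2 lists, 24.6% of all genes tested were higher and 24.9% were lower. Edf1, which binds collided ribosomes, averaged 69.1 ± 2.42 CPM in senescent medium and 49.5 ± 4.08 CPM in control medium. Edf1 rose, with a log2 fold change of 0.48 ± 0.055 (edgeR adjusted p = 1.39e-08), and Nemf, which acts on stalled large subunits, had a log2 fold change of -0.42 ± 0.059 (edgeR adjusted p = 6.62e-07). Of the 6 genes linking ribosomal proteins to p53, 2 were higher and 3 were lower, with a median of -0.13. The 3 include the Rpl5 row, whose family sum was higher, at 0.26 ± 0.036 (edgeR adjusted p = 3.27e-07). The Rpl11 row did not pass the threshold, and its family sum was also higher, at 0.30 ± 0.045 (edgeR adjusted p = 1.36e-05). Mdm4, an inhibitor of p53, had a log2 fold change of -0.57 ± 0.051 (edgeR adjusted p = 7.14e-11), and Trp53 itself had a log2 fold change of -0.39 ± 0.050 (edgeR adjusted p = 7.68e-08). The 2 higher genes were Cdkn1a, with 0.15 ± 0.032 (edgeR adjusted p = 2.18e-04), and Mdm2, with 0.14 ± 0.037 (edgeR adjusted p = 0.0019). Of 21 MYC and RNA polymerase I and III factors, 6 were higher (28.6%) and 8 were lower (38.1%), with a median of -0.06. Mxd4, a MAX partner that opposes MYC, had a log2 fold change of 0.33 ± 0.037 (edgeR adjusted p = 5.96e-09). Gtf3c1, a subunit of the polymerase III factor TFIIIC, had a log2 fold change of -0.27 ± 0.038 (edgeR adjusted p = 5.95e-07). These 2 had the smallest adjusted p of the list. Myc itself was among the 6 higher, with a log2 fold change of 0.35 ± 0.064 (edgeR adjusted p = 3.00e-05), so the list gives no single direction.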

How the data were processed

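Bulk RNA-seq libraries (3 per medium) were read from 1 deposited table of estimated counts per Ensembl gene, not normalized. STAR, DESeq2 and the build mm39 are named per the submitters' processing notes. Not given in the sources used here: the counting tool, its handling of reads with several places, the annotation, the use of strand. Estimated counts as deposited were rounded and tested with edgeR 4.0.16 (R 4.3.3; quasi-likelihood, robust, TMM factors, filterByExpr, two-sided, medium as the only term), with Benjamini-Hochberg adjustment over 14644 genes and a threshold of 0.05. CPM are TMM-scaled, and CPM per kb use the length of the shortest principal coding transcript. Depth was 17228200 to 21659400 counts a library, and intervals from 3 libraries a group cover the spread between these libraries.

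Symbols (18092 of 18124 identifiers) and transcripts came from GENCODE M21 on GRCm38, so no mm39 coordinates are given, and promoter windows from RefSeq. Window sharing was exact over 100 bases. Genes were named by a rule: per subunit the 5 largest rises and falls whose groups do not overlap. The 3 highest and 3 lowest per kb, a fixed set of stalk, 5S-particle and copy genes, and the 2 smallest adjusted p-values of each other list were also named. Genes that share reads or exons with a named gene, and Myc, Mdm2, Cdkn1a and Rps20, were added after their values were seen. The genes and lists were chosen with earlier results of these data known. A gene of the lists is not reported here. Alternatives were DESeq2 1.42.0, limma-voom (limma 3.58.1), other scalings and filters, GC content and length offsets, a replicate block, leaving out each library and family sums. The edgeR script was also tested on simulated data.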

Additional observations from a re-analysis of the deposited data

How the results depend on the processing

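With library totals only, 30 genes were higher and 5 lower (median log2 fold change 0.106), with 16 higher and 5 lower in the large subunit (0.0821) and 14 higher in the small (0.116); the median of all genes was then -0.0818. With GC content and length offsets the median was 0.111 (small subunit 0.146) and 5 genes were lower, all 5 in the large subunit, whose median was 0.0807, and with the replicate block added to the offsets 5, 5 and 0.0804. A minimum absolute log2 fold change of 0.2 left 30 higher, 17 of the large and 13 of the small subunit. Without the copies 1 gene was lower, 1 in the large subunit. With the -ps rows 81 of 170 were higher, 47 of 102 large and 34 of 68 small, beside 24.6% of all genes tested. The difference in the share of counts was then 0.183 percentage points in place of 0.112. Genes with under 10% of windows shared, a choice made after seeing the data, had 8 higher (4 large, 4 small) and 1 lower (1 large).

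Leaving out 1 library gave 35 to 64 genes higher and 3 to 4 lower with medians between 0.14 and 0.244. Over all genes, these fits called 6404 to 7099 in either direction, of 14886 to 14954 tested. The replicate numbers did not pair the libraries: same-numbered libraries had correlations of deviations of 0.0187, 0.0019 and 0.0262. The replicate block gave 51 genes higher and 3 lower.

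Of 1053 comparisons for the 48 named genes, 993 kept their direction and side of the threshold, 22 changed sign, 18 gained and 20 lost the call; the causes were not tested. Of the genes that passed the threshold, Rpl5 alone changed sign, to 0.258 as a family sum. The other sign changes were of genes that had not passed. With library totals only they were Rps27l (-0.00571), Rpl3 (-0.0108), Rps4l (-0.0066) and Rpl6l (-0.007). With upper-quartile factors they were Rps6 (0.002) and Rpl36al (0.00816). With the offsets they were Rps4l (-0.0112), Rpl6l (-0.0347) and Rps27 (-0.00699), and with the block added Rps4l (-0.0139) and Rpl6l (-0.0347). As family sums they were Rps6 (0.1) and Rpl37 (0.302). On leaving out 1 library, the ranges that cross 0 were -0.0861 to 0.0387 for Rps6, -0.259 to 0.0877 for Rpl37, -0.0457 to 0.0512 for Rpl36al, -0.0237 to 0.377 for Rpl39, -0.0506 to 0.291 for Rps27 and -0.0853 to 0.444 for Rpl32l. At this depth a row under 1 CPM, Rpl32l, had a standard error larger than its value.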
